A study of Sus scrofa with 18 samples.

Results

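The cadherin superfamily was examined in the fetal brain of the domestic pig. Members were all genes of the gene-level count table whose symbol begins with CDH followed by a number, PCDH followed by a number or a letter, FAT followed by a number, or CELSR followed by a number. This rule found 47 of 31908 genes, 45 by the symbol in the deposited table and 2 (FAT4 and PCDH20) by a separate table of gene names. Of the 47 members, 43 had enough counts to be tested, and the other 4 (CDH16, CDH17, CDH19 and PCDHB1) were close to 0 in every library. Whole brains of male and female fetuses were collected on gestation day (GD) 45, GD60 and GD90, with 3 females and 3 males at each day and 18 libraries in all. The dams were gilts (Landrace x Large White) inseminated with LR-M6 semen, and neither dams nor fetuses received a treatment. The groups thus differed by gestation day, by sex and, between days, by litter, and the study asked how gene expression of the brain changes with both. The female and the male with the same replicate number at a day came from litters of the same recorded size, which makes them likely litter mates. The p-values below measure the spread between these fetuses.

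Cadherins are calcium-dependent adhesion molecules of the cell surface. Classical cadherins bind their own kind on a neighbouring cell and are tied to the actin skeleton through catenins, and different brain regions and neuron types carry different type II cadherins. The clustered protocadherins are made from tandem arrays of variable first exons, each with its own promoter, that are spliced to shared constant exons, and neurons use them as a surface label to tell their own branches from those of others. FAT and CELSR proteins are giant relatives that act in planar cell polarity, tissue growth and axon guidance.

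Libraries held 15118843 to 19729783 counts (median 16413097), of which the 47 members took 0.199% to 0.400%. All 6 neuronal markers (MAP2, TUBB3, RBFOX3, SNAP25, SYT1 and STMN2) were in the table, and their summed level was 5902 CPM (counts per 1000000 counts, scaled between libraries by TMM) or more in every library. The summed level of 5 oligodendrocyte markers was 22.4 to 41.2 CPM at GD45, 37.6 to 69.2 CPM at GD60 and 1718 to 2953 CPM at GD90. That of 6 astrocyte markers was 220 to 382 CPM at GD45 and 1662 to 2155 CPM at GD90, and that of 5 radial glia markers was 1713 to 3289 CPM and 955 to 1366 CPM at the same ages. In whole brain, fewer cells of a type and less RNA per cell cannot be told apart, and the part of this change in cell make-up in the results below was not tested. The library of male GD45 replicate 3 stood apart from both other GD45 males (chi-square per degree of freedom of 117 and 139 over genes), and female GD60 replicate 3 stood apart from its group (71.1 and 52.0), where the remaining replicate pairs reached 31.6 at most. Male GD45 replicate 3 held the highest GD45 sum of 4 erythroid markers (780 CPM, against a GD45 median of 333 CPM). Its GD45 sums were also highest for neuron (8583 CPM), radial glia, microglia, endothelium, choroid plexus, ependyma and epithelium markers. They were lowest for oligodendrocyte, astrocyte and fibroblast markers. Results were therefore also computed without these 2 libraries. The libraries also differed in how their counts depended on gene length. Across the genes tested, the slope of each library's deviation in log2 CPM on log2 gene length ran from -0.19 in male GD45 replicate 3 to 0.12 in male GD90 replicate 3, and the members that moved with this slope are described below.

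The clustered protocadherins of the pig lie on chromosome 2 of Sscrofa11.1, on the plus strand, and 9 members belong to them. The row named PCDHAC2 (chr2:142472588-142688092) and the row named PCDHGA4 (chr2:142983077-143156558) span a whole array each, the alpha array and the gamma array. Both rows therefore hold many first exons and are not single isoforms, whatever their names say. PCDHA11 (chr2:142538379-142541234) and PCDHA13 (chr2:142549516-142552145) lie inside the alpha row, and PCDHGB1 (chr2:142989140-142991824), PCDHGA6 (chr2:143013973-143016722) and PCDHGB5 (chr2:143036876-143049603) lie inside the gamma row. Reads on shared sequence of such overlapping rows could not be assigned with certainty. The member rows of the 3 arrays hold 23 first exons of at least 1000 bases, 12 of which begin with ATG on this genome.

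Short stretches before some of these first exons are shown, because promoters of variable exons are known to carry a conserved motif with the core CGCT and because they mark which exons the counts below refer to. The 6 letters GTCGCT, chosen after the sequences had been seen, stood within the 250 bases before 9 of 14 alternate first exons of the alpha and gamma arrays on the strand of the gene. They stood before 1 of the 5 exons at the 3' ends of these arrays. Of 30431 windows of the same length before the starts of all genes, 2.6% held them on the same strand and 5.18% on either strand. The capitals mark these letters in 30 bases of the RefSeq copy of Sscrofa11.1, chromosome 2, plus strand.
alpha array, exon at 142472588, from 142472401 to 142472430: tggccacatggtGTCGCTgtctaccacagt
alpha array, exon at 142480038, from 142479823 to 142479852: tagccacatgatGTCGCTgtccaccgcgag
alpha array, exon at 142501660, from 142501460 to 142501489: gagccgcttgatGTCGCTgtgtaccgtgaa
PCDHA13, exon at 142549516, from 142549313 to 142549342: catgcgcatggtGTCGCTcttcactgaaaa
gamma array, exon at 142983077, from 142982822 to 142982851: aggcctctgggcGTCGCTgttcaccactca
gamma array, end exon at 143131540, from 143131338 to 143131367: agggctcaggctGTCGCTgttttccccgcc
In these 6 windows the letters began 175, 203, 188, 191, 243 and 190 bases before their exons. The 2 end exons of the alpha array had no GTCGCT on the strand of the gene. A match of 6 letters is a description and says nothing of which factor binds there.

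The counts of the exon table showed that the last exons of the alpha array gained over the alternates as the brain grew older. The last 2 first exons of the array (chr2:142578446-142581126 and chr2:142641594-142644190) stand where human and mouse arrays carry their C-type exons, which are expressed in a more general way than the alternates. At GD45 these 2 exons held 25.6% (lowest), 36.4% (median) and 44.4% (highest) of the counts on the 10 usable variable exons of the array. Usable exons are those with any count. The share was 38.6%, 46.4% and 50.3% at GD60, and 62.2%, 65.8% and 69.2% at GD90. No library of GD90 overlapped with any library of GD60, while GD45 and GD60 overlapped. The mean share rose by 20.7 percentage points from GD60 to GD90 (exact two-sided permutation test of 6 against 6 libraries, p = 0.00216, the smallest it can give, adjusted p = 0.026 over 12 tests of exon measures, all chosen after the exon counts had been seen). From GD45 to GD60 it rose by 8.94 points (exact permutation p = 0.0195, adjusted p = 0.039). These shares rest on 43 counts (male GD45 replicate 3) to 1577 counts (male GD90 replicate 2) per library. Without male GD45 replicate 3 and female GD60 replicate 3 the differences were 19.8 and 7.77 points. Litter mates are not independent, and with their counts summed 3 litters against 3 cannot go below 0.10. At GD90 the females had 65.8%, 69.2% and 65.2% and the males 65.9%, 66.9% and 62.2%, so the shares of the sexes overlapped. The part of the length slope of the library in these shares was not tested.

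**Figure D1:**
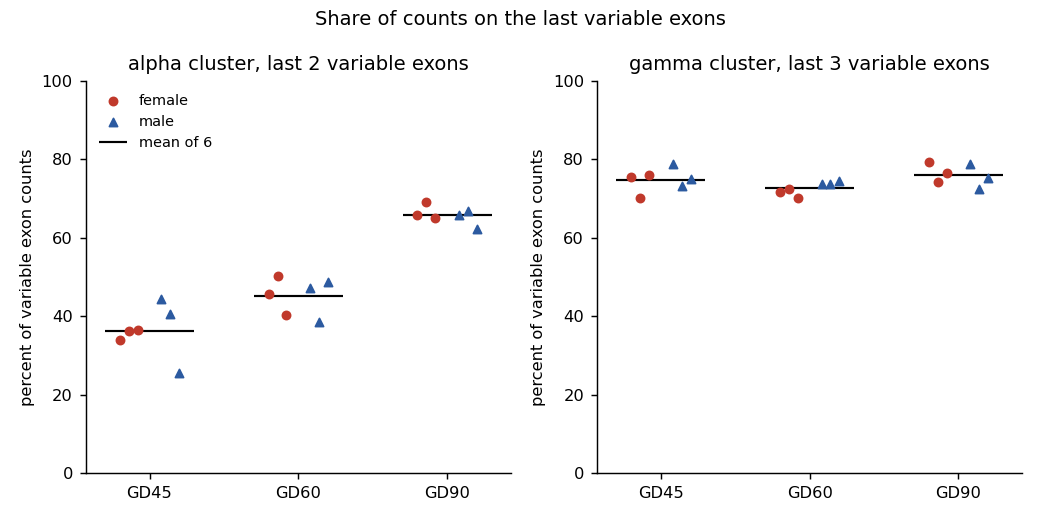
Percent of the counts on variable first exons that fell on the last 2 exons of the alpha array (left) and the last 3 exons of the gamma array (right) in each library, by gestation day. Circles are females, triangles males and lines the mean of 6 libraries. The alpha share lies between 62.2% and 69.2% in all GD90 libraries, above every GD60 library, and the gamma share stays between 70.1% and 79.4%.

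Both parts of this ratio can be given on their own, as counts per 1000000 counts of the exon table, without TMM scaling (exon CPM). The last 2 alpha exons had 1.53, 12.8 and 24.5 (lowest, median and highest) at GD45, 19.5, 33.2 and 56.4 at GD60, and 37.0, 108 and 128 at GD90. The alternates had 4.46, 21.4 and 36.1 at GD45, 25.1, 39.7 and 66.6 at GD60, and 19.2, 52.3 and 76.0 at GD90. Both rose from GD45 to GD60 (exact permutation, adjusted p = 0.039 for each). From GD60 to GD90 the last exons rose again (adjusted p = 0.039), and the alternates gave 42.6 ± 16.7 and 48.5 ± 21.6 (SD, n = 6 each, exact permutation adjusted p = 0.652). The single exon at chr2:142641594-142644190 took 50.9% of all variable exon counts of the array, with 6224 counts over the 18 libraries, where the alternates had 24 to 1201. The alternate with 24 counts has 2 other annotated exons over it and the one with 401 counts has 1, so their counts are uncertain.

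In the gamma array, the 9 usable variable exons all came from the PCDHGA4 row. The last 3 of them held 70.1%, 75.3% and 78.9% of the variable exon counts at GD45, 70.2%, 73.0% and 74.6% at GD60, and 72.5%, 75.9% and 79.4% at GD90. These ranges overlapped, and the mean difference was -2.09 points from GD45 to GD60 (exact permutation, adjusted p = 0.211) and 3.43 points from GD60 to GD90 (adjusted p = 0.039). The latter call was lost without female GD60 replicate 1 or 3, female GD90 replicate 1 or 3 or male GD90 replicate 1, with an exact p of 0.0519 each time. The 3 end exons did not move together. The exon at chr2:143135869-143137488 had 3.80, 6.45 and 7.76 exon CPM at GD60 and 9.43, 23.3 and 26.2 at GD90, without overlap. The exon at chr2:143131540-143134269 had 157, 175 and 203 at GD60 and 77.0, 129 and 165 at GD90, overlapping slightly. Single exons were not tested. The long exons of PCDHGB1, PCDHGA6 and PCDHGB5 (1218, 1961 and 3386 counts) are second exon entries in the table and were left out of this share. With them among the alternates, the share had medians of 65.1%, 65.3% and 70.0% at the 3 ages, and the differences were -0.57 points (exact permutation p = 0.755) and 5.42 points (exact permutation p = 0.00866).

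At the level of the gene rows, the alpha array rose at both steps. The PCDHAC2 row had 85.1, 136 and 147 CPM (lowest, median and highest of 6 libraries) at GD45, 177, 202 and 229 CPM at GD60, and 270, 304 and 337 CPM at GD90. Its 3 ranges did not overlap. It was 1.60-fold higher at GD60 than at GD45 (log2 fold change 0.68 ± 0.11 SE, adjusted p = 0.000433, edgeR's quasi-likelihood test over 16325 genes, mean of the sexes) and 1.53-fold higher at GD90 than at GD60 (0.61 ± 0.11 SE, adjusted p = 0.000288). Of all members it was the one whose call held at both steps under all 24 alternative analyses. The gamma row named PCDHGA4 had medians of 903, 961 and 956 CPM at the 3 ages and did not pass the test at either step. PCDHB7, of the beta array, had 1.57, 2.32 and 4.02 CPM at GD60 and 0.722, 1.05 and 2.17 CPM at GD90, with overlap. Its log2 fold change was -1.08 ± 0.30 SE (adjusted p = 0.00827). Of its counts 214 lay on an exon of 1747 bases (82 at GD60 and 4 at GD90) and 507 on an annotated exon of 44 bases downstream (179 and 115). Single libraries held 0 to 45 counts on the long exon at GD60 and 0 to 2 at GD90. An unnamed row on the same strand (chr2:142817656-142910600) spans the PCDHB7 row, though no other annotated exon lies over the long exon. PCDHA11, PCDHA13, PCDHGB1, PCDHGA6 and PCDHGB5 passed at neither step, with medians of 1.15 to 12.9 CPM over the days, and the level of PCDHA13 was 0 in male GD45 replicate 3. With the length slope of the library as a covariate, PCDHGB1, PCDHGA6 and PCDHGB5 passed at the later step (log2 -0.71, -0.71 and -0.70, adjusted p = 0.00998, 0.00589 and 0.00069). Without it they were at -0.52, -0.53 and -0.35.

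Levels between genes were compared per kilobase of gene length, as FPKM computed from CPM and the length in the table. The PCDHGA4 and PCDHAC2 rows each hold a whole array, so the length used for them (30786 and 22970 bases) covers all their exons. No single transcript has that length, so their FPKM are too low and their ranks are uncertain. At GD45 PCDHGA4 had a mean of 890 CPM and CDH2 of 255 CPM. By this measure CDH2, the N-cadherin of neural progenitors and neurons, was highest at GD45, at 61.7 ± 16.5 FPKM (SD, n = 6). PCDH8, a delta-2 protocadherin of synapses and growing axons, followed with 34.3 ± 7.11 FPKM and PCDHGA4 with 28.9 ± 2.32 FPKM. At GD60 PCDH8 (44.7 ± 5.21 FPKM) and CDH2 (42.8 ± 10.2 FPKM) differed by less than their spread. At GD90 CDH13, the T-cadherin, which is held in the membrane by a lipid anchor and lacks a cytoplasmic tail, led with 46.4 ± 3.71 FPKM. Below it came CDH2 at 34.9 ± 3.55 FPKM, PCDH1 at 32.4 ± 4.68 FPKM, PCDHGA4 at 30.3 ± 2.49 FPKM and PCDH8 at 29.0 ± 2.10 FPKM. The neighbours within these last 4 differed by less than their spread.

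**Figure D2:**
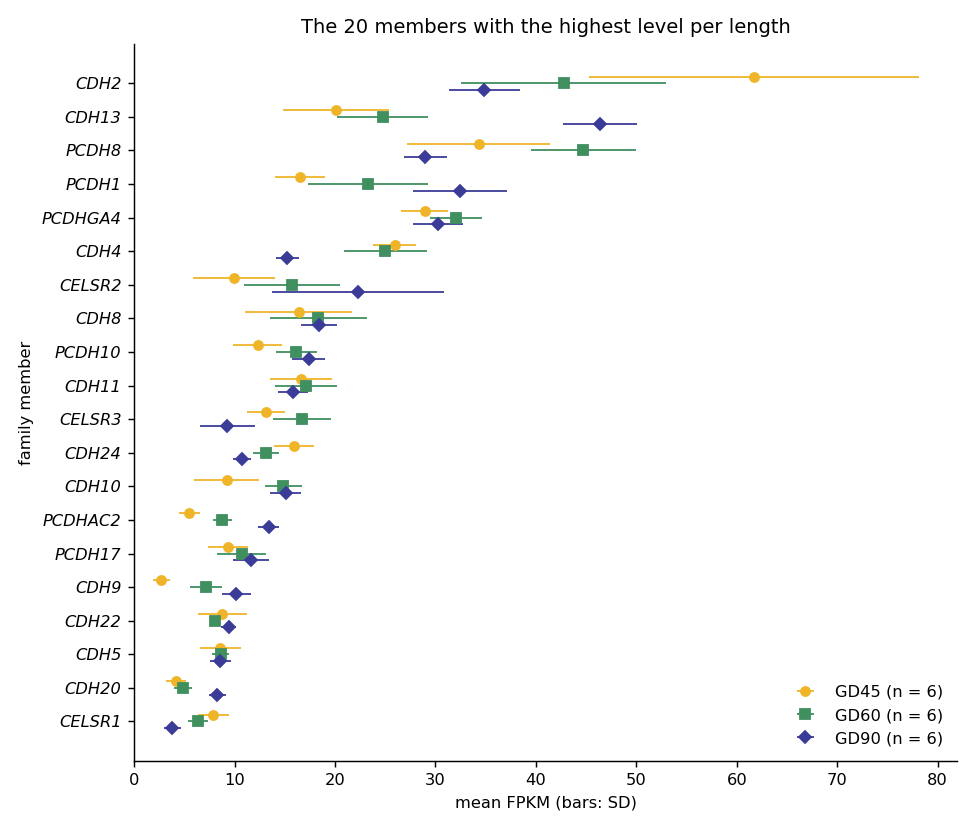
Mean FPKM (CPM per kilobase) of the 20 members with the highest level at any gestation day, with the SD of 6 libraries as bars and 1 marker for each day. CDH2 has the highest mean at GD45 (61.7 FPKM), PCDH8 at GD60 (44.7 FPKM) and CDH13 at GD90 (46.4 FPKM). The levels of PCDHGA4 and PCDHAC2 are divided by the length of all exons of an array, so their ranks are uncertain.

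Between GD45 and GD60, 7 of the 43 tested members passed the test with the sexes averaged (16.3%), against 16.7% of all genes tested (2730 of 16325). Of these, 4 rose (CDH9, CDH10, PCDHAC2 and PCDH10) and 3 fell (CDH3, PCDH18 and CDH24). Over all genes 9.35% rose and 7.37% fell. Between GD60 and GD90, 16 of 43 passed (37.2%), against 42.4% of all genes (6917). Of these, 9 rose (CDH13, CDH20, CDH6, CDH18, PCDHAC2, PCDH20, CDH7, CDH9 and PCDH1) and 7 fell (PCDHB7, CELSR3, CELSR1, FAT4, CDH4, PCDH8 and CDH24), where 21.4% of all genes rose and 20.9% fell. The share of members that changed was thus close to the background at both steps. The median log2 fold change of the members was 0.25 at the earlier step and 0.05 at the later, where that of all genes tested was -0.01 at both. Of the 23 calls, 14 held under all 24 alternatives (CDH3, CDH9, PCDH18 and PCDHAC2 at the earlier step and CDH4, CDH13, CDH18, CDH20, CELSR1, CELSR3, FAT4, PCDH8, PCDHAC2 and PCDHB7 at the later), and the other 9 were lost under 2 or more of them.

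**Figure D3:**
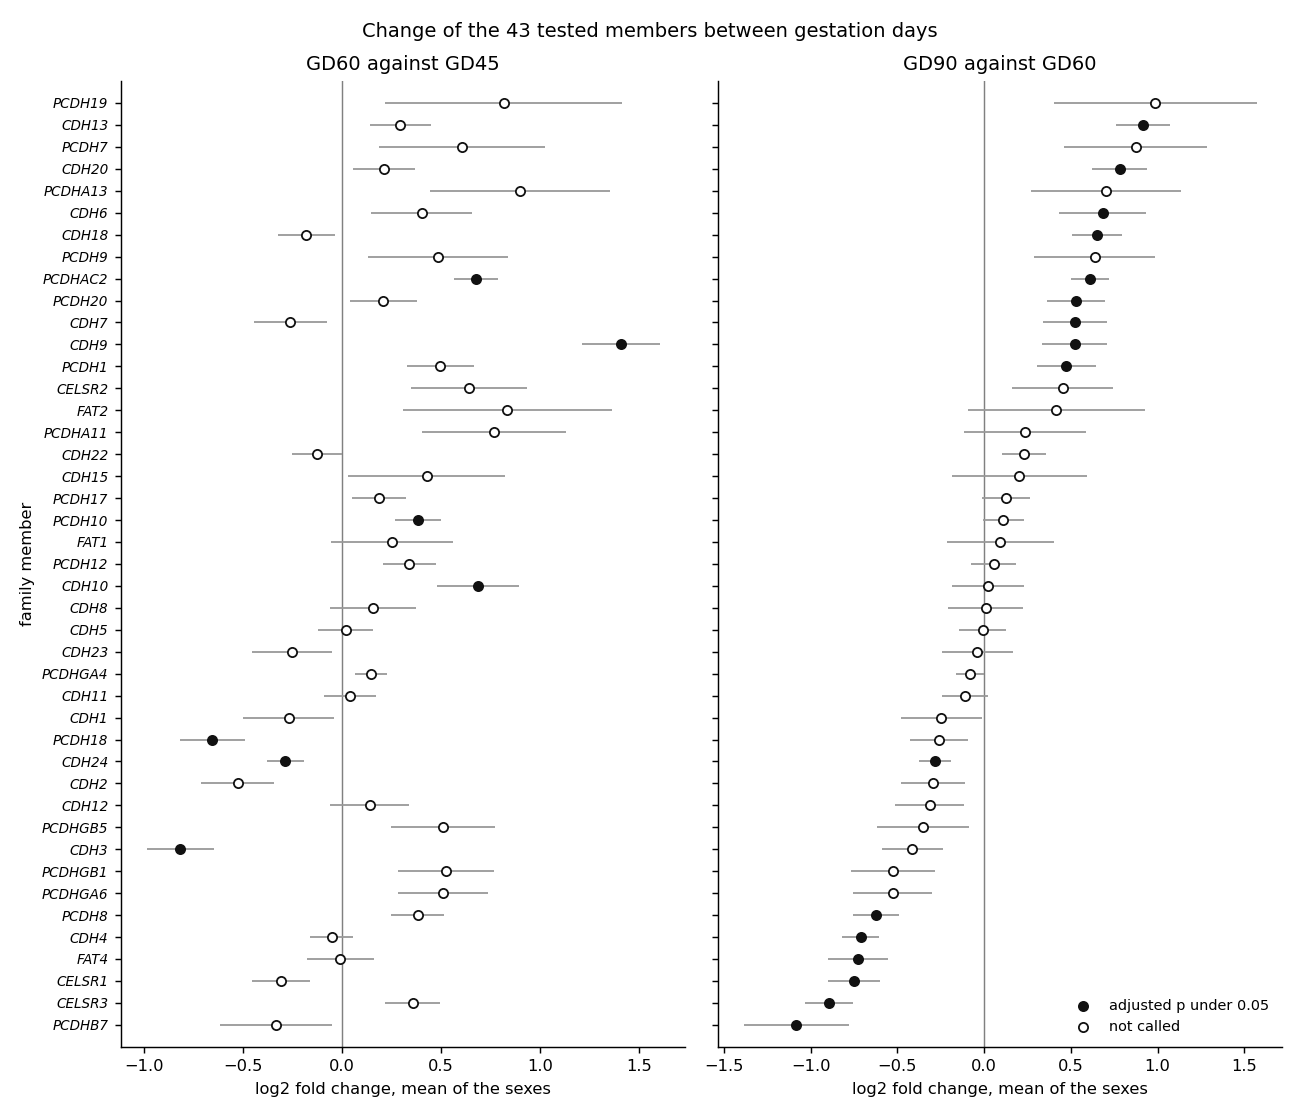
Log2 fold change of each of the 43 tested members between GD45 and GD60 (left) and between GD60 and GD90 (right), averaged over the sexes, with standard errors as bars. Filled points passed the test (7 at left and 16 at right). CDH9 rose most at the earlier step (1.41), and PCDHB7 fell most at the later (-1.08).

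Type II classical cadherins were the largest group tested. These proteins mark subsets of neurons and brain nuclei. Of 12 tested, 2 rose and 1 fell at the earlier step, and 5 rose and 1 fell at the later. At these steps 9.35% and 21.4% of all genes rose and 7.37% and 20.9% fell. CDH9 had 3.34, 9.48 and 10.8 CPM at GD45, 17.4, 23.2 and 31.8 CPM at GD60, and 27.0, 33.2 and 39.2 CPM at GD90. All GD60 libraries lay above all GD45 libraries, and GD90 overlapped with GD60. CDH9 was 2.66-fold higher at GD60 than at GD45 (log2 1.41 ± 0.20 SE, adjusted p = 0.00011) and 1.44-fold higher at GD90 than at GD60 (0.52 ± 0.19 SE, adjusted p = 0.0343), the latter a call lost under 10 of 24 alternatives. One of these was the length slope as a covariate (0.34, adjusted p = 0.0547).

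CDH9 lies in a run of type II genes on chromosome 16 (CDH18, CDH12, CDH10, CDH9 and CDH6, between 7975236 and 17660079), and its neighbours there followed other courses. CDH10 had 13.8, 37.8 and 44.7 CPM at GD45, 42.7, 55.5 and 59.7 CPM at GD60, and 47.3, 55.8 and 60.0 CPM at GD90. GD45 and GD60 overlapped slightly. CDH10 rose once, by GD60 (log2 0.69 ± 0.21 SE, adjusted p = 0.0317, lost under 9 alternatives), and its log2 change to GD90 was 0.02 ± 0.21 SE. CDH18 had 8.47, 11.4 and 16.0 CPM at GD45, 8.58, 10.5 and 11.4 CPM at GD60, and 12.6, 15.3 and 20.7 CPM at GD90, where every library lay above those of GD60. Its change was a rise at the later step (log2 0.65 ± 0.14 SE, adjusted p = 0.00167). CDH12 passed at neither step, with medians of 15.3, 15.9 and 12.7 CPM. CDH6 had 4.97 to 15.9 CPM at GD45, 7.47 to 26.2 CPM at GD60 and 9.59 to 32.2 CPM at GD90, overlapping throughout, and its rise at the later step (log2 0.68 ± 0.25 SE, adjusted p = 0.0379) was lost under 10 alternatives. The sexes went opposite ways, with a log2 change of -0.39 in females (adjusted p = 0.449) and 1.76 in males (adjusted p = 0.00165). The interaction did not pass (adjusted p = 0.175). CDH6 followed the length slope closely (Pearson's r of 0.930 over the 18 libraries), and with the slope as a covariate its change was 0.40.

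A second run of type II genes on chromosome 1 holds CDH19, CDH7 and CDH20, between 155669136 and 160024988. CDH20 had 7.15, 14.9 and 15.1 CPM at GD45, 12.8, 15.0 and 19.6 CPM at GD60, and 22.2, 27.9 and 29.6 CPM at GD90. The GD90 libraries lay above all others. It was 1.72-fold higher at GD90 than at GD60 (log2 0.78 ± 0.16 SE, adjusted p = 0.000747). CDH7 had 6.15, 9.80 and 16.1 CPM at GD60 and 9.86, 14.6 and 25.3 CPM at GD90, with overlap (log2 0.53 ± 0.18 SE, adjusted p = 0.0293, lost under 7 alternatives). The change of CDH7 was -0.14 in females (adjusted p = 0.723) and 1.197 in males (adjusted p = 0.0025), with an interaction that did not pass (adjusted p = 0.179). CDH6 and CDH7 were the 2 of the 16 members called at this step whose sexes differed in sign. CDH19, known from Schwann cell precursors and glia, had 38 counts in all libraries together.

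CDH24 was the type II member that fell at both steps, by little each time. It had 48.1, 51.7 and 62.8 CPM at GD45, 38.6, 44.1 and 49.8 CPM at GD60, and 33.0, 36.5 and 40.5 CPM at GD90, with neighbouring ages overlapping. The log2 fold changes were -0.29 ± 0.09 SE (adjusted p = 0.0447, lost under 14 of 24 alternatives) and -0.28 ± 0.09 SE (adjusted p = 0.0221, lost under 4). CDH8, CDH11, CDH12 and CDH22 passed at neither step. Neither did CDH5, the VE-cadherin of blood vessels, with medians of 37.4, 35.4 and 35.2 CPM, while the summed level of 6 other endothelial markers had medians of 343, 375 and 444 CPM.

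**Figure D4:**
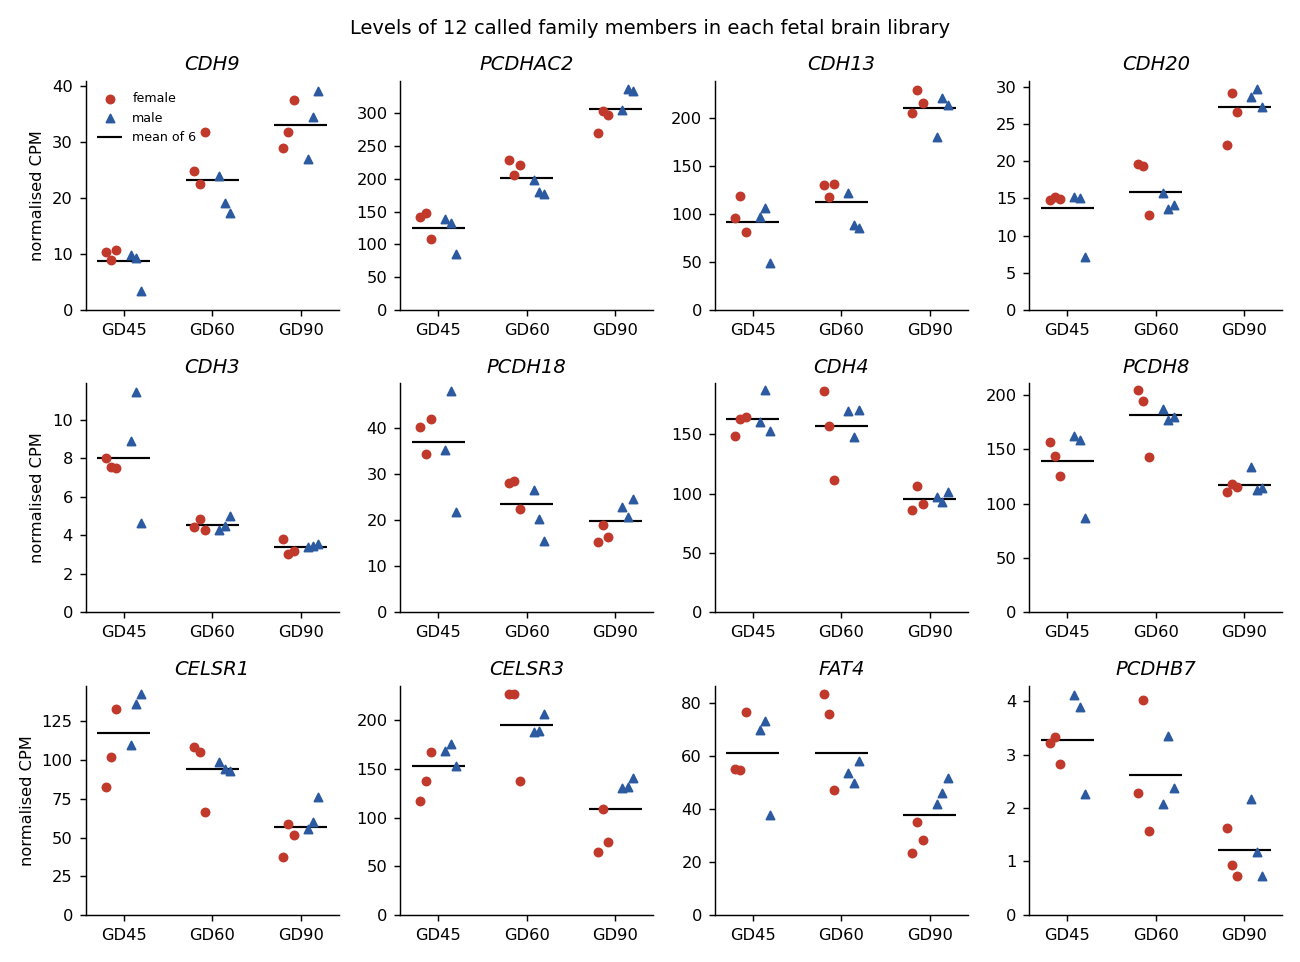
Level in each library (normalised CPM, axis from 0) of 12 members that passed the test at one or both steps, by gestation day. Circles are females, triangles males and lines the mean of 6 libraries. CDH9 and PCDHAC2 lie higher at GD60 than at GD45 in every library, CDH13, CDH20 and PCDHAC2 higher at GD90 than at GD60, and CDH4 and PCDH8 lower.

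Among the type I cadherins, which form the strong junctions of progenitor layers, 1 of 5 fell at each step and none rose. Of all genes 7.37% fell and 9.35% rose at the earlier step, and 20.9% fell and 21.4% rose at the later. CDH3, the P-cadherin, had 4.66, 7.78 and 11.5 CPM at GD45 and 4.27, 4.46 and 4.99 CPM at GD60. The lowest value of GD45 came from male replicate 3, and the other 5 lay above every GD60 library. Its log2 fold change was -0.82 ± 0.17 SE (adjusted p = 0.00296). CDH4, the R-cadherin of retina and forebrain, had 111, 163 and 186 CPM at GD60 and 86.2, 94.8 and 106 CPM at GD90, without overlap. It fell by 0.71 on the log2 scale (SE 0.11, adjusted p = 5.9e-05), with a median of 161 CPM already at GD45.

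CDH2 depended on 1 library. It had 124, 270 and 320 CPM at GD45, 128, 175 and 223 CPM at GD60, and 123, 145 and 162 CPM at GD90. The GD45 value of 124 CPM was male replicate 3, and the other 5 libraries, at 259.8 CPM or more, lay above all of GD60. With all libraries the log2 fold change from GD45 to GD60 was -0.53 ± 0.18 SE and did not pass (adjusted p = 0.059). Without male GD45 replicate 3 it was -0.69 (adjusted p = 0.00128). The change from GD60 to GD90 was -0.29 ± 0.18 SE (adjusted p = 0.216). CDH1, the E-cadherin of epithelia, and CDH15, the M-cadherin of muscle and cerebellar granule cells, had medians between 1.45 and 5.29 CPM and passed at neither step.

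Outside the classical group CDH13 showed the largest rise at the later step of the members that passed. It had 49.4, 96.4 and 118 CPM at GD45, 85.5, 120 and 131 CPM at GD60, and 180, 214 and 229 CPM at GD90. The ranges of GD60 and GD90 did not overlap. It was 1.89-fold higher at GD90 (log2 0.92 ± 0.15 SE, adjusted p = 0.000158). CDH23, which links the stereocilia of hair cells, had medians of 11.6, 9.75 and 10.1 CPM and passed at neither step.

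The non-clustered protocadherins are grouped as delta-1 and delta-2 by their cytoplasmic motifs, and the delta-2 proteins recruit the actin-regulating WAVE complex. Of 5 delta-2 members, PCDH10 rose and PCDH18 fell at the earlier step, and PCDH8 fell at the later. At the earlier step 9.35% of all genes rose and 7.37% fell, and at the later 20.9% fell. PCDH18 had 21.8, 37.7 and 48.1 CPM at GD45 and 15.5, 24.5 and 28.6 CPM at GD60, overlapping through male GD45 replicate 3 alone (log2 -0.66 ± 0.16 SE, adjusted p = 0.0108). PCDH10 had 60.8, 96.6 and 110 CPM at GD45 and 104.4, 120 and 145 CPM at GD60, with overlap (log2 0.38 ± 0.12 SE, adjusted p = 0.0328, lost under 10 alternatives). PCDH8 went from 143, 183 and 204 CPM at GD60 to 111, 114 and 134 CPM at GD90, without overlap (log2 -0.62 ± 0.13 SE, adjusted p = 0.00119). At GD45 its level was 87.1, 150 and 162 CPM, so GD60 held the highest median of the 3 ages. PCDH17 and PCDH19 passed at neither step.

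Of 3 delta-1 members, PCDH1 rose at the later step, where 21.4% of all genes rose. It had 110, 134 and 159 CPM at GD45, 95.1, 205 and 225 CPM at GD60, and 208, 272 and 297 CPM at GD90. Its lowest GD60 value was female replicate 3, far below the next at 180 CPM. The log2 fold change was 0.50 ± 0.17 SE to GD60 (adjusted p = 0.0546) and 0.47 ± 0.17 SE to GD90 (adjusted p = 0.0322, lost under 6 alternatives). Without both libraries that stood apart, the earlier step was also called (log2 0.57, adjusted p = 0.000475). PCDH20, kept apart from both groups, was 1.44-fold higher at GD90 than at GD60 (4.12, 4.51 and 5.21 CPM against 5.84, 6.47 and 7.52 CPM, without overlap, adjusted p = 0.0168, lost under 2 alternatives). PCDH12, a protocadherin of endothelium, passed at neither step, with medians of 10.2, 12.4 and 13.8 CPM.

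The 3 CELSR genes, the core planar polarity cadherins, took different courses. CELSR3, which guides axon tracts, had 117, 160 and 176 CPM at GD45, 137, 198 and 227 CPM at GD60, and 64.5, 119 and 140 CPM at GD90, where female GD60 replicate 3 (137 CPM) alone overlapped with GD90. It fell by 0.89 on the log2 scale at the later step (SE 0.14, adjusted p = 7.47e-05). CELSR1, which acts in progenitors and ependyma, had 82.4, 121 and 143 CPM at GD45, 66.7, 96.7 and 109 CPM at GD60, and 37.7, 57.3 and 76.0 CPM at GD90, overlapping again through female GD60 replicate 3 (log2 -0.75 ± 0.15 SE, adjusted p = 0.000679). CELSR2 had 38.2, 118 and 157 CPM at GD45, 109, 159 and 247 CPM at GD60, and 101, 278 and 323 CPM at GD90, with wide overlap. Its log2 fold changes, 0.64 ± 0.29 SE and 0.45 ± 0.29 SE, did not pass (adjusted p = 0.149 and 0.228).

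Of the FAT genes, FAT4 fell at the later step. FAT4 pairs with DCHS1 across cell contacts to limit growth and orient progenitors. It had 37.5, 62.2 and 76.4 CPM at GD45, 47.1, 55.6 and 83.3 CPM at GD60, and 23.4, 38.4 and 51.6 CPM at GD90, with overlap (log2 -0.73 ± 0.17 SE, adjusted p = 0.00269). The log2 change of FAT4 was -1.25 in females (adjusted p = 0.0012) and -0.20 in males (adjusted p = 0.532). The interaction did not pass (adjusted p = 0.2). Its partner DCHS1 fell at the same step from a mean of 384 CPM to 153 CPM (log2 -1.34 ± 0.13 SE, adjusted p = 3.82e-07). FAT1 had medians of 22.7, 21.0 and 30.1 CPM and FAT2, known from cerebellar granule cells, of 1.41, 1.78 and 2.40 CPM, and neither passed. FAT2 reached 15.5 CPM in male GD90 replicate 1, where the next GD90 library had 3.02 CPM. The same library held the highest GD90 values of CDH15 (4.93 CPM) and CDH7 (25.3 CPM).

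The genes that work with cadherins were counted from a list, of which 43 were tested. At the earlier step 6 rose and 3 fell (20.9% in all, where 16.7% of all genes passed), and the 4 largest changes among those that passed were those of PTK2B (log2 1.68), a kinase bound by alpha protocadherins, DNMT3B (-0.90), a methyltransferase of protocadherin promoters, PRICKLE2 (0.73) and DCHS2 (0.51). At the later step 9 rose and 14 fell (53.5% in all, where 42.4% of all genes passed). PTK2B rose again (log2 1.78 ± 0.16 SE, from a mean of 27.2 CPM to 93.6 CPM, adjusted p = 2.15e-07), and CTNNA3 (1.58), DCHS1 (-1.34) and PRICKLE1 (1.28) followed in size, CTNNA3 at means under 1 CPM. The change of CTNNA3 was -0.32 in females (adjusted p = 0.75) and 3.49 in males (adjusted p = 0.00129), with an interaction that did not pass (adjusted p = 0.175). Of 10 catenins, PKP4 and CTNNA3 rose at the later step and ARVCF and JUP fell. Of 10 planar polarity genes, PRICKLE1, PRICKLE2 and FZD6 rose and DVL1, DVL2, DVL3 and ANKRD6 fell. Of 11 genes known from the choice of clustered protocadherin promoters, 7 fell at the later step (63.6%, where 20.9% of all genes fell) and the other 4 did not pass. Among those that fell were CTCF (from a mean of 95.0 CPM to 60.7 CPM, log2 -0.64 ± 0.08 SE, adjusted p = 9.69e-06), SMC3, STAG1, SMC1A and NIPBL. The median log2 fold change of these 11 was -0.48, where that of all genes was -0.01.

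The levels of many members moved with the length slope of the library. Over the 18 libraries, Pearson's r between log2 CPM and the slope was 0.945 for PCDH19, 0.935 for PCDH7, 0.930 for CDH6, 0.924 for CELSR2 and PCDH9, and 0.919 for FAT1. These correlations are descriptions. The points share libraries with the genes that gave the slope, and libraries of 1 day and sex are not independent. Within groups (deviations from the means of the 6 groups) the median r over the 43 members was 0.741, against 0.020 over all genes tested, and 17 of 43 members (39.5%) had an r over 0.8, against 12.6% of all genes. The median gene length of the members was 5036 bases and that of all genes tested 4186 bases. Gene length does not order the members by r, since CELSR1 (14935 bases) had an r of -0.20 and PCDH19 is only 3836 bases long.

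PCDH19, an X-linked delta-2 protocadherin whose mutations cause epilepsy limited largely to females, shows the pattern best. The 3 GD45 males had 6.43, 13.9 and 0.155 CPM and the GD45 females 2.35, 5.61 and 4.66 CPM. The GD60 females had 25.3, 17.7 and 2.40 CPM and the GD60 males 9.64, 4.30 and 3.91 CPM. At GD90 the females had 4.85, 20.2 and 7.01 CPM and the males 26.7, 33.6 and 39.2 CPM. The libraries within an age thus spread widely, and the sexes overlapped at GD45 and GD60 but not at GD90. The log2 fold changes of 0.82 ± 0.60 SE to GD60 and 0.99 ± 0.58 SE to GD90 did not pass (adjusted p = 0.391 and 0.188). With the slope as a covariate, added after the data had been seen, they were 0.24 and 0.14.

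**Figure D5:**
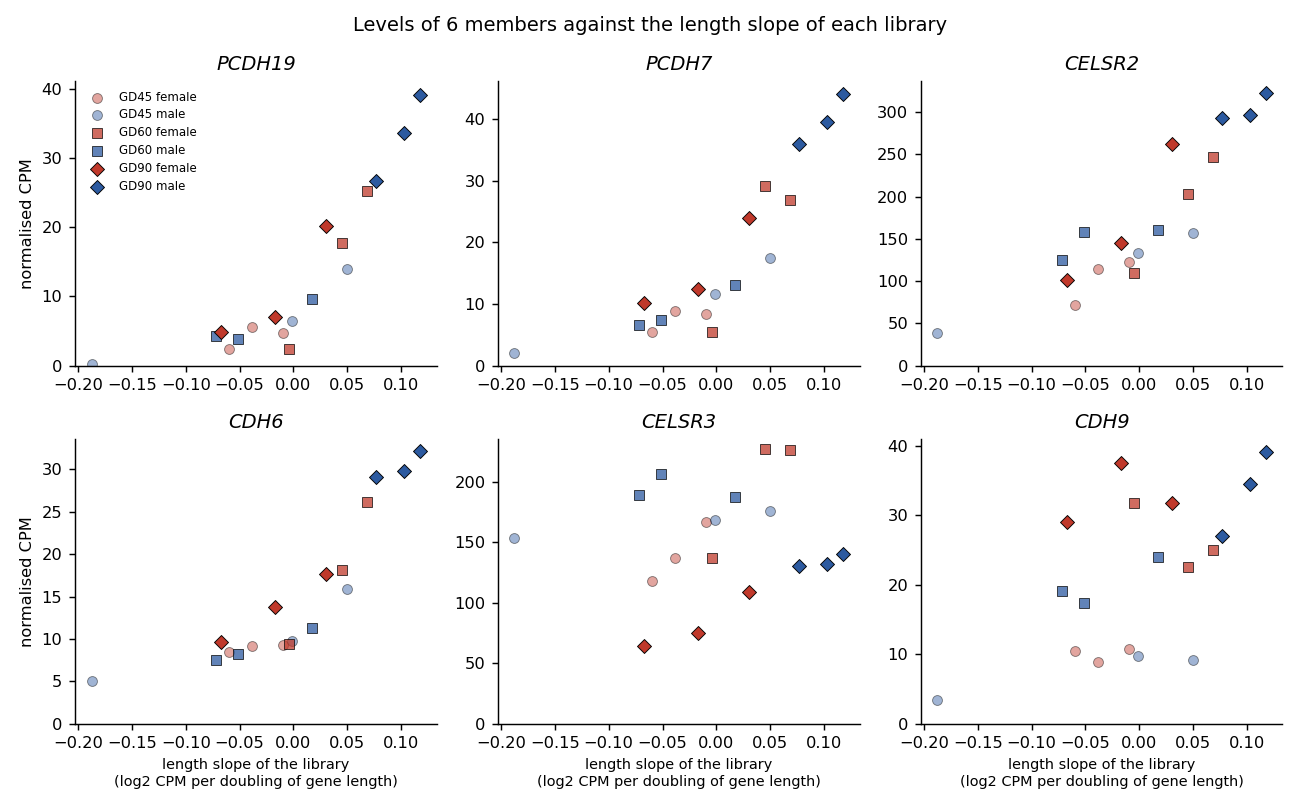
Normalised CPM of 6 members against the length slope of each of the 18 libraries (change in log2 CPM per doubling of gene length). Colour marks sex and shape the gestation day. PCDH19, PCDH7, CELSR2 and CDH6 increase with the slope over all ages (r of 0.924 to 0.945). For CELSR3 and CDH9 r was 0.152 and 0.643, and their ages overlap in part.

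With the same covariate, 24 members passed between GD60 and GD90, of which 9 rose and 15 fell, against 16 without it. Of all genes 52.2% passed with the covariate, 26.1% in each direction. Of the 16 calls, 15 were kept, the call of CDH9 was lost, and 9 members were gained (CDH2, CDH3, CDH11, CDH12, CDH22, PCDH18, PCDHGA6, PCDHGB1 and PCDHGB5). The change of CDH6 went from 0.68 to 0.40. CDH2 then passed at both steps (log2 -0.74, adjusted p = 9.36e-07, and -0.50, adjusted p = 1.05e-05). CELSR3 was at -0.99, CELSR1 at -0.80, FAT4 at -0.92, CDH4 at -0.78, CDH13 at 0.76 and CDH20 at 0.61, where they were at -0.89, -0.75, -0.73, -0.71, 0.92 and 0.78 without it. PCDH7, PCDH9, PCDH19, FAT1 and CELSR2 passed at the later step neither with the covariate nor without it. Without male GD45 replicate 3 and without the covariate, PCDH7 (log2 0.87, adjusted p = 0.031) and PCDH9 (0.64, adjusted p = 0.0215) did pass.

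Within each sex, the step from GD60 to GD90 looked different by count. In females 8 members passed, of which 1 rose and 7 fell, where 27.1% of all genes passed (13.7% rose and 13.4% fell). In males 17 passed, of which 12 rose and 5 fell, where 34.5% of all genes passed (18.5% rose and 16% fell). For GD45 to GD60, 2 members passed in females (background 7.22%) and 3 in males (5.61%). The difference between the sexes was then tested itself. For the later step 0 of 43 members and 0 of all genes passed the interaction in edgeR's quasi-likelihood test (14 members at an unadjusted p under 0.05, and 19.8% of all genes), with 1 member passing in edgeR's likelihood ratio test and 3 in DESeq2. The share of all genes in the likelihood ratio test and DESeq2 is not given here. For the earlier step 0 passed in all 3 tests (1 member and 2.04% of all genes at an unadjusted p under 0.05 in the quasi-likelihood test). Between males and females 0 members passed at GD45 (background 0.0919%), at GD60 (0.098%) or at GD90 (0.098%), in any of the 3 tests, and 0, 3 and 9 had an unadjusted p under 0.05 in the quasi-likelihood test, where 2.59%, 4.8% and 13.6% of all genes did.

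At GD90 this negative result rested on the libraries that stood apart. Without male GD45 replicate 3 and female GD60 replicate 3, 11 members passed between the sexes at GD90, all higher in males (CDH6, CDH7, CELSR2, CELSR3, FAT1, FAT2, FAT4, PCDH7, PCDH9, PCDH19 and PCDHGB5), where 12.2% of all genes passed and 5.83% were higher in males. In the same setting 17 members passed the interaction for the later step, all in the direction of a larger change in males (background 27.9%, of which 13.8% in that direction). CDH6 gives an example, with 9.59, 17.6 and 13.8 CPM in the GD90 females and 29.1, 29.8 and 32.2 CPM in the GD90 males, without overlap (log2 difference 1.14, adjusted p = 0.0226). FAT2 leaned on 1 library, with 15.5, 2.40 and 3.02 CPM in the GD90 males and 2.40, 1.33 and 0.926 CPM in the GD90 females. Neither of the libraries left out belongs to GD90, so these levels are the same in both settings and the estimate of the spread is what differs. The length slopes of the GD90 males, 0.077, 0.103 and 0.118, lay above those of the GD90 females, -0.067, 0.031 and -0.017. With the slope as a covariate as well, 0 of 43 members passed between the sexes at GD90 in edgeR's quasi-likelihood test (background 0.0724%). In that test 7 members and 4.11% of all genes had an unadjusted p under 0.05. The log2 difference of CDH6 was then 0.24, and those of CELSR3, FAT1, FAT4, PCDH7, PCDH9 and PCDHGB5 were 0.13 to 0.34. CDH7 went from 0.77 to 0.71 and FAT2 from 2.15 to 2.95. CELSR2 went from 0.83 to -0.11 and PCDH19 from 1.62 to -0.31. With the 6 GD90 libraries fitted alone, 8 members passed between the sexes. The share of all genes in that fit is not given here, so this count is not read as a result about the members. Sex and length slope cannot be told apart at GD90.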

How the data were processed

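Whole fetal brains were homogenised, and messenger RNA enriched with oligo(dT) was sequenced as paired reads. After quality checks in FastQC and trimming in Trimmomatic, the authors placed the reads on Sscrofa11.1 with HISAT2, and featureCounts gave counts over Ensembl annotation. Strand setting and the treatment of reads with several matches were not given in the sources used here. The deposited values were raw counts per gene and per exon, without normalisation. Repeat runs of 4 libraries were summed.

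From the counts, genes with low counts were removed (edgeR filterByExpr, 16325 genes kept), libraries were scaled by TMM, and a model with 6 groups of sex and day over 18 libraries was tested by edgeR's quasi-likelihood test (edgeR 4.0.16, R 4.3.3), with Benjamini-Hochberg adjustment over all genes tested and a threshold of 0.05. Normalised CPM and FPKM (CPM per kilobase of the table's gene length) describe levels. Exon shares used raw exon counts and exact two-sided permutation tests (scipy 1.17.1). The test was also run on simulated counts with known changes. These held no litter mates, length slope or outlying library, so that check does not cover such features of the data. Alternatives included DESeq2 1.42.0, another filter, a litter block and leaving out each library. Named members were all CELSR and FAT genes, called members with at least 1 CPM (the 8 strongest in each direction and comparison), the 3 highest by FPKM at each day, and those called between the sexes. The exon measures with their tests and alternatives, the length slope and the joint omission of 2 libraries were added after the data had been seen. Members and lists were chosen with earlier results of these data known. Family genes without a named row (such as PCDH15 and FAT3) were not analysed here.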

Additional observations from a re-analysis of the deposited data

Results flagged for a closer look

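Of 129 sets of 6 libraries (each tested member at each gestation day), 14 held a library that stood far from the other 5 by Dixon's test, and chance gives about 1 in 20. Male GD45 replicate 3 accounts for 10 of the 14. It was lowest at GD45 for CDH20 (7.151 CPM, next library 14.79 CPM), CDH8 (30.47 against 63.59 CPM), CDH11 (55.73 against 87.11 CPM) and CDH5 (19.66 against 34.6 CPM). It was also lowest for CDH2 (123.7 against 259.8 CPM), CDH9 (3.342 against 8.944 CPM), PCDH9 (3.342 against 16.27 CPM), PCDHA11 (0.1555 against 1.122 CPM) and PCDHA13 (0 against 0.9181 CPM, where 3 counts are the limit that a count of 0 allows). For CDH22 it was highest (45.63 against 30.05 CPM). Its length slope, -0.19, was the lowest of all libraries, and the part of this in the values was not tested. Female GD60 replicate 3 was lowest for PCDH1 (95.14 against 180.1 CPM) and CELSR1 (66.72 against 93.15 CPM). At GD90, female replicate 1 was lowest for CDH20 (22.17 against 26.6 CPM), and male replicate 1 was highest for PCDH8 (133.9 against 118.2 CPM).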

How the results depend on the processing

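None of the 23 calls between days, with the sexes averaged, reversed direction. Calls that appeared without male GD45 replicate 3 and female GD60 replicate 3 were less stable. With the length slope added as a covariate, CELSR2 and PCDH19 changed sign between the sexes at GD90. For the later interaction CELSR2, PCDH18, PCDH19 and PCDHA11 did. The share of all genes that passed also moved with the setting. Without male GD45 replicate 3 and female GD60 replicate 3 it went from 0.098% to 12.2% between the sexes at GD90. For the later interaction it went from 0 to 27.9%. The member counts below are given without that share and are not read as traits of the family. The number of members called between GD45 and GD60 (7) was 4 with only the libraries compared and 4 with the counts of litter mates summed, 11 with the length slope as a covariate, 11 without male GD45 replicate 3 and female GD60 replicate 3, and 16 with both changes. In females this count (2) became 4 in the likelihood ratio test, 5 in DESeq2, 4 with only the libraries compared, 5 with the covariate, 18 without both libraries and 8 with both changes. In males (3) it became 1 without TMM factors, 0 with only the libraries compared (5 at an unadjusted p under 0.05 in edgeR's quasi-likelihood test), 9 with the covariate, 6 without both libraries and 6 with both changes. Between GD60 and GD90 the count in females (8) became 17 with the covariate, 19 without both libraries and 15 with both changes. Between the sexes at GD60 (0) it became 2 without both libraries, and at GD90 (0) 8 with only the libraries compared and 11 without both. The interaction at the earlier step (0) gave 5 without both libraries. At the later step (0) it gave 1 in the likelihood ratio test, 3 in DESeq2, 8 with only the libraries compared and 17 without both. Leaving out 1 library at a time gave 4 to 10 members for GD45 to GD60 and 11 (without male GD90 replicate 2) to 23 (without male GD45 replicate 3) for GD60 to GD90. Within females the ranges were 1 to 10 and 4 to 15, and within males 1 to 6 and 7 to 23. Male GD45 replicate 3 gave the highest count in all 4, and 12 members for the later interaction (0 to 12). The sexes at GD90 gave 0 to 1. The cause of these shifts was not tested. The alpha end-exon share kept its direction, at 6.82 to 10.6 points and 19.4 to 21.8 points for the earlier and the later step with 1 library left out, and at 7.65 and 20.0 points with litter mates summed, where the exact permutation p was 0.10, the smallest possible. The gamma share differed by -3.02 to -1.27 points and by 2.78 to 4.16 points with 1 library left out. It passed at the earlier step only without female GD45 replicate 2 (-3.02, exact p = 0.0216). At the later step it was 2.92 points without both libraries (exact p = 0.0519) and 3.43 points with litter mates summed (exact p = 0.1). With the long exons of 3 further gamma rows among the alternates it was -0.57 and 5.42 points, with the same calls. Deviations of same-numbered litter mates correlated between -0.09 and 0.42, not all above 0.1, so the pairing is not certain. With litter as a replicate block, 6 members passed at the earlier step and 17 at the later, and no count moved by over 1.5 times. Depth limits low members such as PCDHA11, PCDHA13, PCDHB7 and FAT2, at a few CPM or less.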

Other observations

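The summed level of 6 HOX genes of hindbrain and spinal cord was 0 to 75.1 CPM at GD45, at most 2.15 CPM at GD60 and at most 0.705 CPM at GD90. The sum of 6 choroid plexus markers was 950 to 1826 CPM at GD45 and 422 to 983 CPM at GD90, and that of 6 Schwann cell markers was 35.7 to 47.6 CPM and 102 to 159 CPM. The epithelial markers (5 in the table) summed to 12.7 to 35.0 CPM at GD45 and 5.84 to 9.30 CPM at GD90, beside which CDH1 had 3.26 to 7.86 CPM and 2.25 to 5.46 CPM and CDH3 4.66 to 11.5 CPM and 3.05 to 3.83 CPM. The part of these cell types in the levels of the members was not tested.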
